A study of Mus musculus with 30 samples.

Results

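Wild-type mouse brain was compared with 4 other wild-type tissues, testis, liver, skeletal muscle and heart, to describe which genes set brain apart from them. The brain group held 3 arrays, replicates 1 to 3 of the samples titled brain wild type, of 15 wild-type arrays and 30 arrays in all, and the other wild-type tissues held 3 arrays each, 12 together. The series used ClpP knockout mice and their wild-type littermates, ClpP being the proteolytic subunit of a protease of the mitochondrial matrix, and every animal was on the C57BL/6 background. The groups used below were wild-type brain, testis, liver, muscle and heart, and, for a repeat of the comparison in other samples, knockout brain and the same 4 knockout tissues. Neither age nor brain region is given in the labels, which say only brain, nor is it said whether replicates were separate animals. Standard errors (SE) and p-values rest on the spread between arrays within groups, pooled for each gene over all 10 groups of both genotypes. Where the brain arrays spread more widely than those of other groups, the SE understates the spread in brain. Total RNA was copied into biotinylated cRNA and hybridised to single-colour expression arrays, and all levels are log2 values as deposited, on which a difference of 1 is a 2-fold difference. Each of 17097 genes was read by 1 probe set, the one with the highest mean over the 30 arrays, and levels of different probe sets were not set against each other.

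Brain tissue is a mixture of neurons, which signal through electrical impulses and the release of transmitter at synapses, and glial cells. Oligodendrocytes wrap axons in myelin, astrocytes take up transmitter and feed neurons, and microglia are the resident macrophages. Nerve cells rely largely on glucose and ketone bodies for fuel and use little fat, in contrast to heart, muscle and liver. In a bulk tissue sample, fewer cells of a type and less RNA per cell cannot be told apart, which holds for every difference below.

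The markers of neurons, all 26 of which were measured, were higher in the samples labelled brain, and 4 markers of the other tissues were near background there. Albumin (Alb), made by hepatocytes, stood at 2.52, 2.47 and 2.33 on the 3 brain arrays against a liver mean of 13.46, muscle creatine kinase (Ckm) at 2.83, 2.75 and 2.61 against 13.27 in muscle, the cardiac troponin Tnni3 at 2.83, 2.66 and 2.65 against 13.02 in heart, and the protamine Prm2 of sperm heads at 2.48, 2.42 and 2.48 against 13.63 in testis. Array medians ran from 3.24 to 3.38, so a tissue mean below 4 was treated as near background and a difference to it as a lower bound. Clpp itself stood at 8.15, 7.95 and 7.79 on the wild-type brain arrays and at 3.11, 3.0 and 3.21 on the knockout brain arrays.

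Replicate 3 of wild-type brain stood apart from replicates 1 and 2. It correlated with the other 5 brain arrays of either genotype at r of 0.974 to 0.977 over the 17097 genes, whereas those 5 correlated with each other at 0.992 to 0.996. Among 6159 genes with a level of at least 6 on a wild-type brain array, 338 were higher by more than 1 on replicate 3 than the mean of replicates 1 and 2, and 187 were lower by more than 1. Replicate 1 against the mean of the other 2 had 38 higher and 115 lower, and replicate 2 had 44 and 147, both against means that include replicate 3. For knockout brain replicates 1, 2 and 3 against the mean of wild-type replicates 1 and 2, 11, 9 and 12 of these genes were higher and 8, 8 and 21 lower. The knockout arrays did not enter the filter. A gene high on a knockout array alone could not be counted, while one high on replicate 3 alone could, so the counts are not like for like. The genes that differed on replicate 3 included, as described further on, markers of brain regions and of the pituitary. Among the other tissues, testis replicate 3 stood at 7.69 for the neuropeptide Npy and 8.13 for the astrocyte receptor Ntsr2, while testis replicates 1 and 2 stood at 3.92 and 2.92 for Npy and at 3.99 and 3.78 for Ntsr2. Muscle replicate 1 had the highest level of Mbp outside brain, 7.51. Values of brain replicate 3 are therefore named where they differ, and results that rest on it are given without it as well.

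**Figure D1:**
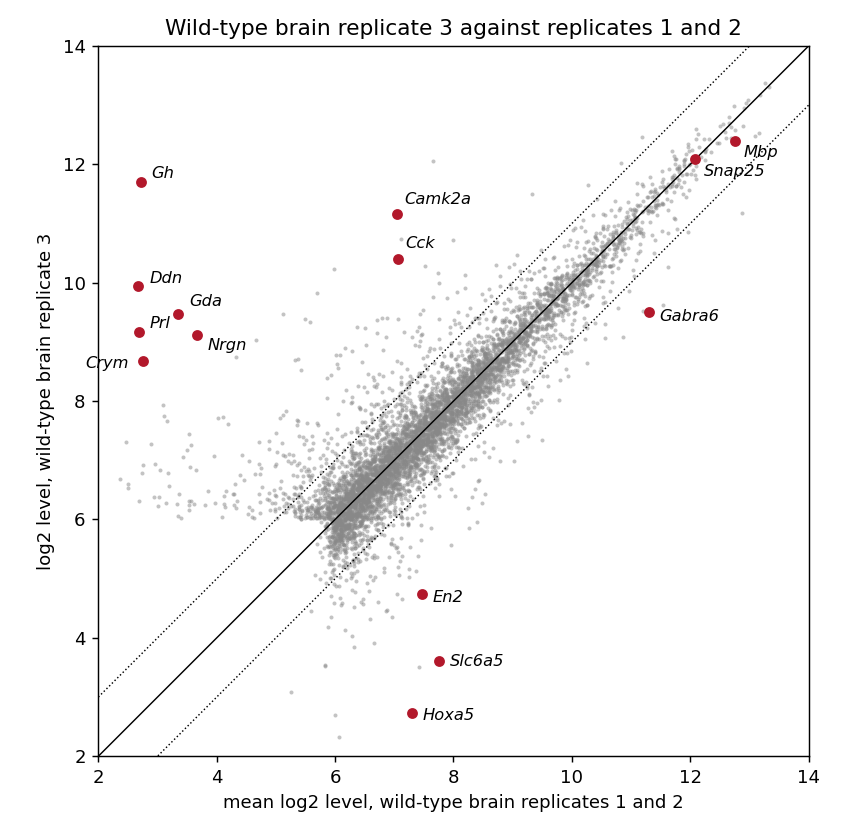
Log2 level on wild-type brain replicate 3 (vertical axis) against the mean of wild-type brain replicates 1 and 2 (horizontal axis), 1 point per gene for the 6159 genes with a level of at least 6 on a wild-type brain array, with the line of equality and lines at a difference of 1. Pituitary and forebrain genes such as Gh, Prl, Ddn and Nrgn lie far above the line, and Hoxa5, Slc6a5 and En2 far below it.

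Of the 17097 genes, 4806 (28.1%) were higher in brain than the mean of the 4 other tissues and 7958 (46.5%) were lower, at an adjusted p below 0.05 in limma with Benjamini-Hochberg adjustment. The counts of list members given below stand beside these shares. Rises were more numerous among the largest changes, with 809 genes higher by at least 3 on the log2 scale and 209 lower by at least 3. At a difference of at least 1 the falls were more numerous, 3513 beside 2729 rises. The mean of 4 tissues dilutes a gene that is high in only 1 of them. The median difference over all genes was −0.20. A stricter test asked whether brain lay above each of the 4 tissues, taking the largest of the 4 p-values, and called 2112 genes (12.4%) above and 875 genes (5.12%) below each tissue. Of the 2112 genes above each tissue, 1490 were at least 1 above the highest other tissue and 501 at least 3, and for 918 of them all 4 other tissues were near background. Of the 875 below each tissue, 281 were at least 1 below the lowest and 10 at least 3. Where genes were higher than the mean, brain was the highest tissue for 3223, testis for 460, muscle for 397, liver for 373 and heart for 353.

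Set against 1 tissue at a time, brain was higher in 34.0% of genes and lower in 35.1% relative to testis, 29.5% and 31.3% relative to liver, 26.7% and 32.7% relative to muscle, and 25.5% and 32.8% relative to heart. These comparisons share the 3 brain arrays. Without brain replicate 3, 26.9% of genes were higher and 43.0% lower than the mean of the other tissues, and 12.3% lay above and 4.52% below each tissue, with 4474 genes higher in both versions and 7180 lower in both. Gh and Fezf2 were the 2 genes called higher with replicate 3 and lower without it.

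The 15 genes with the largest rises, each with all 3 brain arrays above all 12 other arrays, were led by genes of nerve endings and axons. Snap25, a membrane protein that drives fusion of synaptic vesicles, stood at 12.07, 12.08 and 12.08 on the 3 brain arrays and between 2.26 and 2.78 on the 12 others. The difference was at least 9.58 ± 0.1 (SE, n = 3 arrays per tissue), with a limma adjusted p of 5.01e-29. Neurofilament light chain (Nefl), a strut of the axonal skeleton, stood at 11.81, 11.93 and 11.50 in brain and at 2.2 and 2.61 elsewhere, these being the lowest and the highest of the 12 other arrays, as in each pair of values for the other tissues below. The microtubule regulator Stmn3 stood at 12.09, 12.00 and 11.90 in brain, against 2.66 and 3.49 elsewhere. For all 3 genes the other tissues lay at background, and the spread between the brain arrays was small beside the gap.

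Calbindin (Calb1), a calcium buffer abundant in Purkinje cells of the cerebellum, had the fourth largest rise, with 11.89, 12.02 and 10.86 on brain replicates 1, 2 and 3 and 2.43 and 2.9 on the others. It was followed by the neurofilament medium chain Nefm (difference 8.63 ± 0.15), the calmodulin-binding protein Pcp4 (8.43 ± 0.16), the aldolase Aldoc of astrocytes and Purkinje cells (8.39 ± 0.27), and myelin basic protein Mbp (8.3 ± 0.22). The remaining 7 were the axonal motor Kif5a (8.28 ± 0.14), the imprinted gene Nap1l5 (8.27 ± 0.19), Fam107a (8.26 ± 0.19), the Purkinje cell protein Pcp2 (8.16 ± 0.23), the adhesion molecule contactin 1, Cntn1 (8.08 ± 0.09), the small GTPase Diras2 (8.07 ± 0.16), and the granin Chgb of secretory vesicles (8.02 ± 0.16). Replicate 3 was lowest of the brain arrays for Calb1 and for Pcp2, which stood at 11.49, 11.60 and 9.63 on replicates 1, 2 and 3. The 10 genes farthest above the highest other tissue were all among these 15, led by Snap25 and Nefl. In 4 of the 15 genes the mean of another tissue reached 4 or more: Chgb was at 6.69 in testis, Aldoc at 6.68 in liver and 5.59 in testis, Mbp at 6.48 in muscle and Diras2 at 4.53 in testis. For the other 11 the difference is a lower bound.

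**Figure D2:**
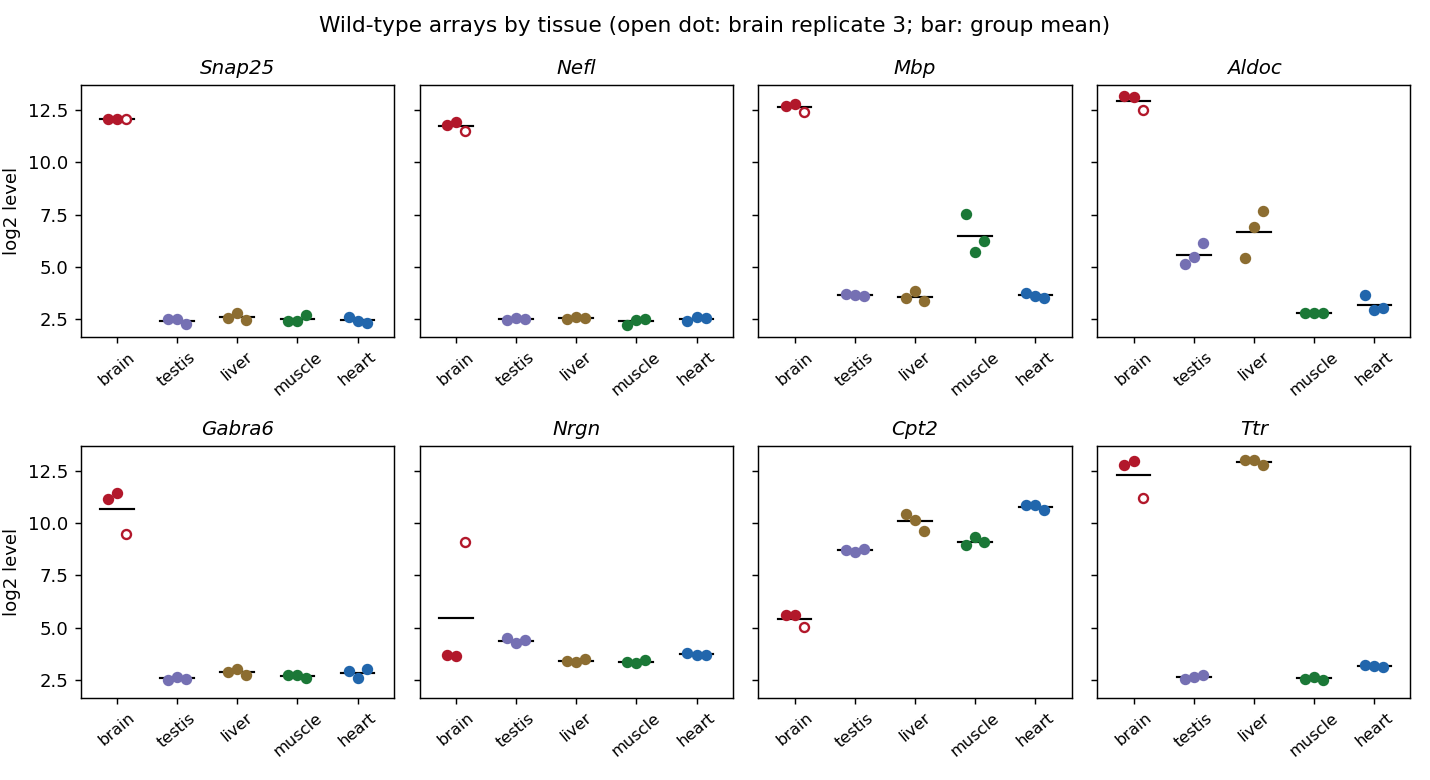
Log2 level on each of the 15 wild-type arrays for 8 genes, 1 panel per gene, with brain at the left of each panel and testis, liver, muscle and heart after it; dots are arrays, bars are group means, and brain replicate 3 is an open dot. Snap25, Nefl, Mbp and Aldoc lie above every other array in all 3 brain samples, Gabra6 is lower on replicate 3, Nrgn is high on replicate 3 alone, Cpt2 lies below every other array in brain, and Ttr is high in brain and liver.

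Genes that mark neurons as a class were higher in brain without exception. All 26 were called higher than the mean of the other tissues and 25 lay above each of them, with a median difference of 6.24. The largest rises after Snap25, Nefl, Stmn3 and Nefm included Eno2, neuron-specific enolase, at 9.65, 9.74 and 9.84 in brain and 2.32 and 2.65 elsewhere. The member that did not lie above each tissue was Map2, a dendritic microtubule protein, at 4.29, 4.5 and 4.72 in brain and 6.94 in testis. Without replicate 3 the counts were the same.

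Proteins of synaptic vesicles and their release followed. Of 35 measured, 33 were higher in brain, 1 lower and 32 above each tissue, with a median difference of 4.91. Besides Snap25, the largest rises were those of complexin 1 (Cplx1), which clamps and triggers the fusion machinery, at 11.81, 11.71 and 11.63, against 3.23 and 4.46 in the other tissues, and of synaptotagmin 1 (Syt1), the calcium sensor of release, at 10.92, 10.75 and 12.03, against 2.74 and 5.42. Syt4, another synaptotagmin, differed by 7.58 ± 0.10. Syt1 and the vesicle coat protein synapsin 1 (Syn1, 7.07, 6.49 and 7.74) were highest on replicate 3. Syngr1, a vesicle membrane protein, was the member lower in brain, at 5.5, 5.29 and 5.26 by its chosen probe set, against 8.38 in muscle and 8.75 in heart, but another probe set of this gene differed by 5.56 in favour of brain.

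On the receiving side, 24 of 30 genes of the postsynaptic density and synaptic adhesion were higher, 1 lower and 19 above each tissue (median 2.1). The adhesion molecule Nrxn3, which sits on the presynaptic face, stood at 9.42, 9.6 and 8.75, against 2.44 and 3.36 elsewhere. The scaffold genes Dlgap1 and Dlg2 stood at 8.46, 8.15 and 9.34 and 8.15, 8.17 and 8.56, and the adhesion molecule Cadm3 at 9.02, 8.98 and 8.76. On this list 11 genes were higher by more than 1 on replicate 3 and none lower by more than 1, and without that array 20 were higher, 2 lower and the median was 1.3. Shank1, a scaffold, was the 1 lower with all arrays, at 2.54, 2.55 and 2.56, below background.

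The neuronal skeleton and its motors behaved likewise, with 30 of 32 members higher, 1 lower and 27 above each tissue (median 4.27). The motors Kif5a and Kif5c, which carry cargo along axons, differed by 8.28 ± 0.14 and 7.88 ± 0.14. The tau gene Mapt stood at 10.00, 10.03 and 10.06 in brain but also at 8.26 in muscle and 8.05 in heart. Tuba8, an alpha-tubulin, was lower in brain, at 6.49, 6.51 and 5.44, against 10.15 in testis, 10.06 in muscle and 9.61 in heart.

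Receptors for the fast transmitters were split between subunits far above the other tissues and subunits near background in brain. Among ionotropic glutamate receptors, 10 of 16 were higher and 3 lower. The AMPA receptor subunit Gria2 was at 10.05, 10.07 and 10.93 in brain, against 2.29 and 2.94 elsewhere, and Gria4, Gria1 and Gria3 differed by 6.57 ± 0.16, 6.15 ± 0.10 and 5.13 ± 0.17. Of the NMDA receptor subunits, Grin2c, which is typical of cerebellar granule cells, was at 9.07, 8.49 and 6.98 on brain replicates 1, 2 and 3. Grin2b fell, with 2.3, 2.36 and 2.57 in brain and 5.37 in testis, by a probe set whose brain values were all below background, while another probe set of Grin2b was higher in brain by 1.83. Grin2d and Grin3b fell by 0.53 and 0.46 with brain levels also below background.

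GABA-A and glycine receptors, the inhibitory counterparts, had 13 of 18 members higher, 13 above each tissue and 1 lower, which was Gabrp at 2.67, 2.63 and 2.51, below the background limit. Gabra6, a subunit made almost only by cerebellar granule cells, stood at 11.17, 11.42 and 9.5 on brain replicates 1, 2 and 3 and at 2.5 and 3.02 elsewhere. Gabrb2, Gabrb1 and the glycine receptor beta subunit Glrb differed by 7.66 ± 0.08, 5.89 ± 0.14 and 5.72 ± 0.08. For Gabrb2 the 3 brain arrays were 9.86, 9.98 and 10.28, all above the other tissues.

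Of 12 measured genes on a list of sodium channels and their subunits, 9 were higher and 2 lower. Scn1a stood at 9.98, 9.8 and 9.54 in brain, against 2.42 and 2.77, and Scn2b, Scn2a and Nalcn differed by 6.7 ± 0.10, 6.42 ± 0.16 and 5.55 ± 0.10. The 2 that were lower were Scn7a, at 6.04 in heart and 2.62, 2.85 and 2.86 in brain, and Scn10a of sensory neurons outside the brain, near background throughout. Potassium channels showed 26 of 41 higher, 7 lower and 17 above each tissue. Kcnj10, the channel by which astrocytes clear potassium, stood at 9.68, 9.41 and 8.84 in brain, and Kcna1, Kcnk1 and Kcna2 differed by 6.52 ± 0.19, 6.21 ± 0.47 and 5.89 ± 0.17. Among the 7 lower were the cardiac channel genes Kcna5 and Kcnq1, at 6.47 and 6.45 in heart, and Kcna7, at 9.37 in muscle.

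Calcium channel genes were fewer to rise, 12 of 22, with 6 lower, beside 28.1% higher and 46.5% lower over all genes. Those that rose most were the auxiliary subunits Cacnb4 (5.09 ± 0.09), Cacna2d3 (5.05 ± 0.11), Cacng2 (4.95 ± 0.14) and Cacna2d2 (4.62 ± 0.34), and Cacnb4 stood at 8.27, 8.36 and 8.08 in brain, against 2.93 and 3.38. Of the 6 lower, 4 belong to the skeletal muscle channel: Cacna1s, its pore, was at 2.48, 2.62 and 2.59 in brain and 10.07 in muscle, and Cacng1, Cacnb1 and Cacng6 were at 9.89, 7.98 and 7.82 in muscle.

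Receptors that act through G proteins were higher in 15 of 29 cases and lower in 2, and with each array centred on its median 13 were higher and 10 lower. Without replicate 3, 12 were higher and 2 lower. The cannabinoid receptor Cnr1 stood at 9.28, 9.35 and 8.86 in brain, against 2.35 and 2.66, the serotonin receptor Htr2c at 8.65, 8.54 and 8.01, against 2.3 and 2.65, and the GABA-B subunit Gabbr1 at 10.21, 10.25 and 10.20, against 3.83 and 5.51. The glutamate receptor Grm3 was highest on replicate 3, at 7.58, 7.39 and 8.72. The dopamine receptor Drd4 and the opioid receptor Oprm1 were lower, with brain levels at background.

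Neuropeptides and the granins packed with them were mostly higher, 25 of 33, with 3 lower. The 4 largest differences were those of Chgb and the secretogranin family genes Scg5 (7.85 ± 0.09), Scg2 (6.89 ± 0.09) and Scg3 (6.61 ± 0.12). The hypothalamic peptides Hcrt, Oxt and Npb were lower, with brain values of 3.05, 2.82 and 3.11 for hypocretin, 2.85, 2.99 and 3.29 for oxytocin and 3.01, 3.28 and 2.7 for neuropeptide B, all below the background limit.

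Glial genes were also raised. All 20 measured oligodendrocyte and myelin genes were higher and 16 above each tissue, with a median of 3.33. Mbp stood at 12.69, 12.81 and 12.40 in brain and between 3.36 and 7.51 elsewhere, the upper end from the first muscle array. Ugt8a, which makes the myelin lipid galactosylceramide, stood at 8.9, 9.09 and 8.5, against 2.23 and 4.36. The transcription factor Olig1 and the membrane protein Mal differed by 5.46 ± 0.19 and 5.36 ± 0.37, with Olig1 at 7.33 in liver and Mal at 7.89 in heart.

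Of 18 astrocyte genes, 17 were higher and 14 above each tissue (median 4.08). Aldoc, the brain aldolase, was at 13.17, 13.15 and 12.53. The calcium-binding protein S100b was at 9.59, 9.59 and 8.26 and the gap junction protein Gjb6 at 7.69, 7.65 and 7.57, against 2.42 and 3.1 and 2.47 and 2.7 elsewhere, and the water channel Aqp4 was at 9.84, 9.75 and 8.93 in brain and up to 8.3 on a muscle array. No astrocyte gene was called lower.

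Microglial genes changed less, with 10 of 16 higher, 1 lower, 3 above each tissue and a median of 0.56. The purinergic receptor P2ry12 was at 4.76, 5.04 and 6.15 on the brain arrays, against 2.42 and 3.29, and the fractalkine receptor Cx3cr1 at 4.88, 4.79 and 5.76, against 3.06 and 4.0. Both were highest on replicate 3. Tyrobp, an adaptor of myeloid receptors, was at 6.48, 6.38 and 6.59 in brain and 6.93 in heart, so it was not highest in brain. Aif1, widely used to stain microglia, was lower in brain than the mean, a fall that came from testis, at 10.55. Its mean was 4.06 in brain, beside 4.42 in liver, 3.8 in muscle and 3.98 in heart. With probe sets marked as cross-hybridising left out, Aif1 was not measured. Without replicate 3, 7 of the 16 were higher.

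Vessel genes went both ways. Of 18 genes of endothelium and pericytes 10 were higher and 6 lower, beside 28.1% and 46.5% over all genes. Slco1c1, the thyroxine transporter of the blood-brain barrier, stood at 7.64, 7.74 and 7.82, against 2.5 and 3.16, and the glucose transporter Slc2a1 at 8.26, 8.15 and 7.63, against 4.23 and 6.47, while Slco1a4 stood at 7.97, 8.0 and 7.71 in brain and 8.23 in liver. Genes of endothelium in general were among the lower ones, with the growth factor receptor Kdr at 4.78, 4.81 and 4.91 in brain and 9.09 in heart and the adhesion molecule Pecam1 at 2.92, 2.94 and 3.03 and 6.47.

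Genes of 8 further lists of brain cell types and regions were split, and their counts stand beside 28.1% higher and 46.5% lower over all genes. Precursors of oligodendrocytes had 4 of 8 genes higher and 1 lower, led by the phosphatase Ptprz1 at 8.36, 8.45 and 8.23, against 2.59 and 3.25. Among genes of meninges and fibroblasts, 4 of 14 were higher and 8 lower, with the prostaglandin synthase Ptgds at 12.82, 12.95 and 12.64 and the collagen gene Col3a1 at 4.48, 5.33 and 3.53, against 9.92 in muscle and 9.94 in heart. Of 11 genes of progenitors and immature neurons 3 were higher and 3 lower, the lower ones being Nes and the division genes Mki67 and Top2a, which were at 6.69 and 9.04 in testis. The lists of striatum, hypothalamus, thalamus, olfactory bulb and monoamine or acetylcholine neurons had 9 of 16, 7 of 17, 10 of 16, 5 of 13 and 4 of 12 genes higher, and 2, 4, 3, 2 and 2 lower. The shares higher among olfactory bulb, monoamine or acetylcholine and progenitor genes were near that over all genes. With each array centred on its median 9 hypothalamic genes were lower and 6 higher, and 6 olfactory bulb genes were lower and 4 higher.

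**Figure D3:**
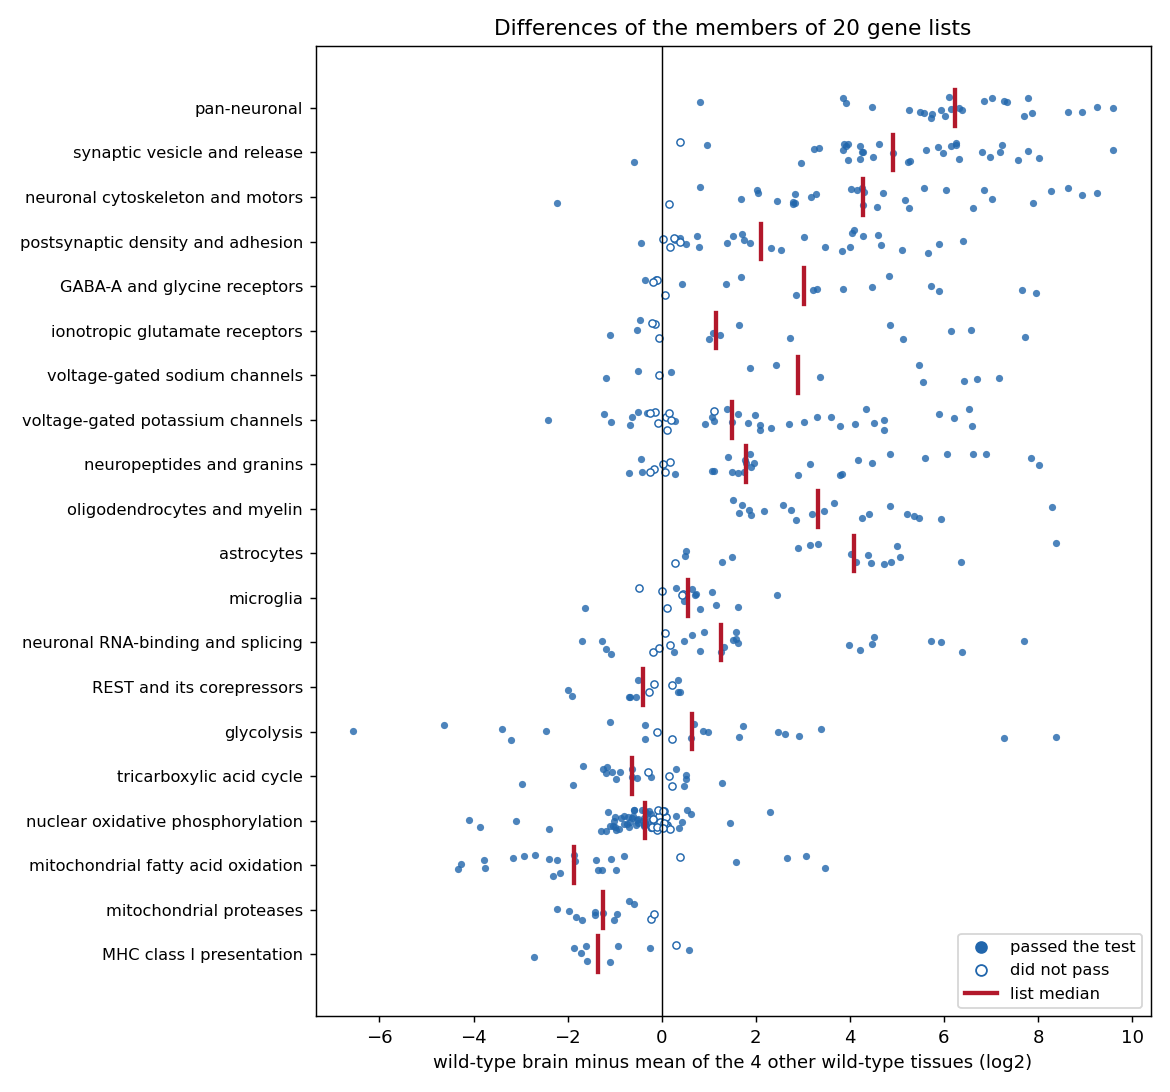
Difference between wild-type brain and the mean of the 4 other wild-type tissues on the log2 scale for each measured member of 20 gene lists, 1 row per list and 1 point per gene, with the list median as a bar and zero as a line; filled points passed the test. The pan-neuronal, synaptic vesicle and cytoskeleton lists have medians above 4, and fatty acid oxidation, mitochondrial protease and class I presentation lists have medians below −1.

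Markers of brain regions differed between the brain arrays. Of 19 cerebellar genes 18 were higher in brain than the mean of the other tissues and 17 above each, and the same 18 were lower by more than 1 on replicate 3 than the mean of replicates 1 and 2. The granule cell genes Gabra6 and Cbln3 were at 11.17, 11.42 and 9.5 and 10.87, 10.84 and 9.09 on replicates 1, 2 and 3, and the Purkinje cell genes Calb1 and Pcp2 fell likewise on replicate 3. On replicate 3 they still lay far above the other tissues, whose arrays ran between 2.32 and 2.66 for Cbln3. The knockout brain arrays 1, 2 and 3 had 10.84, 11.45 and 11.24 for Gabra6.

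Genes of cortex and hippocampus ran the other way, with 12 of 19 higher by more than 1 on replicate 3 and none lower by more than 1. Neurod6, a transcription factor of cortical excitatory neurons, was at 2.73, 2.74 and 6.79 on replicates 1, 2 and 3, and Fezf2, a factor of deep cortical layers, at 2.29, 2.45 and 6.69. Camk2a, the alpha subunit of the postsynaptic calcium-calmodulin kinase, was at 7.28, 6.8 and 11.15. With all 3 arrays 12 of the 19 genes were higher in brain and 1 lower, and without replicate 3 these counts were 9 and 7. Rasgrf1, a Ras activator, was high on all 3 arrays, at 10.57, 10.90 and 11.13, as was Lamp5 at 7.65, 8.08 and 8.54, and the peptide Cck was at 7.09, 7.04 and 10.40.

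Of 19 midbrain and hindbrain genes 10 were higher in brain and none lower, and 8 were lower by more than 1 on replicate 3, with 1 higher by more than 1. The homeobox gene Hoxa5, which is expressed in the caudal hindbrain and spinal cord, was at 7.71, 6.87 and 2.73, and Hoxb5 at 6.5, 5.65 and 2.33. The glycine transporter Slc6a5 of inhibitory neurons in brainstem and spinal cord was at 7.88, 7.62 and 3.61. Knockout brain arrays 1, 2 and 3 had 4.9, 6.48 and 5.92 for Hoxa5 and 7.91, 7.52 and 7.5 for Slc6a5, on the side of wild-type replicates 1 and 2. Nefh, the heavy neurofilament chain, and the synuclein Sncg, both on the hindbrain list, were at 9.8, 10.05 and 8.82 and 7.29, 6.81 and 4.74.

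The genes of 3 pituitary hormones were high on replicate 3 alone. Growth hormone (Gh) was at 2.72, 2.72 and 11.70 on replicates 1, 2 and 3, prolactin (Prl) at 2.72, 2.65 and 9.17 and the glycoprotein hormone alpha chain (Cga) at 2.55, 2.37 and 7.31. All 3 passed the test against the other tissues with all arrays and had differences of −0.49, −0.07 and −0.21 without replicate 3. Of the 10 measured pituitary genes 4 were higher with all 3 arrays and 1 without replicate 3, which left Chga, a granin also made by neurons. The knockout brain arrays had 3.3, 2.88 and 2.88 for Gh.

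The 10 genes highest on replicate 3 relative to replicates 1 and 2 were Gh, Ddn, Prl, Gda, Crym, Nrgn, Cga, Ptk2b, Vip and Ctxn1. Ddn and Nrgn, both postsynaptic proteins of forebrain neurons, were at 2.64, 2.71 and 9.94 and 3.68, 3.64 and 9.11, the peptide Vip of cortical interneurons at 3.03, 3.18 and 7.74, and Crym, a thyroid hormone binding protein, at 2.78, 2.72 and 8.68. Gda, a guanine deaminase, was at 3.36, 3.33 and 9.48, the kinase Ptk2b at 2.99, 3.19 and 7.93, and Ctxn1 at 3.12, 3.21 and 7.67. The 10 lowest were Hoxa5, Slc6a5, Serpinb1b, Hoxb5, Aqp6, En2, Iltifb, Lhx1, Gdf10 and Kcnj13, with 1 clone name left out. En2, a homeobox gene of midbrain and cerebellum, was at 7.54, 7.39 and 4.73, Lhx1, a factor of Purkinje cells, at 7.25, 7.0 and 4.65, and Gdf10, a growth factor of Bergmann glia, at 8.39, 8.4 and 5.95. Kcnj13, a potassium channel of the choroid plexus, was at 6.5, 7.23 and 4.45. With these genes stood 9 of 15 markers of ependyma and choroid plexus that were lower by more than 1 on replicate 3, with Ttr, the thyroxine carrier of cerebrospinal fluid, at 12.79, 12.97 and 11.19, Clic6 at 6.72, 7.05 and 4.47 and Kl at 5.78, 5.91 and 3.89. Ttr was as high in liver, at a mean of 12.94, and so was not above each tissue. Whether the samples held different parts of the brain was not tested, and the labels do not give the part taken.

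**Figure D4:**
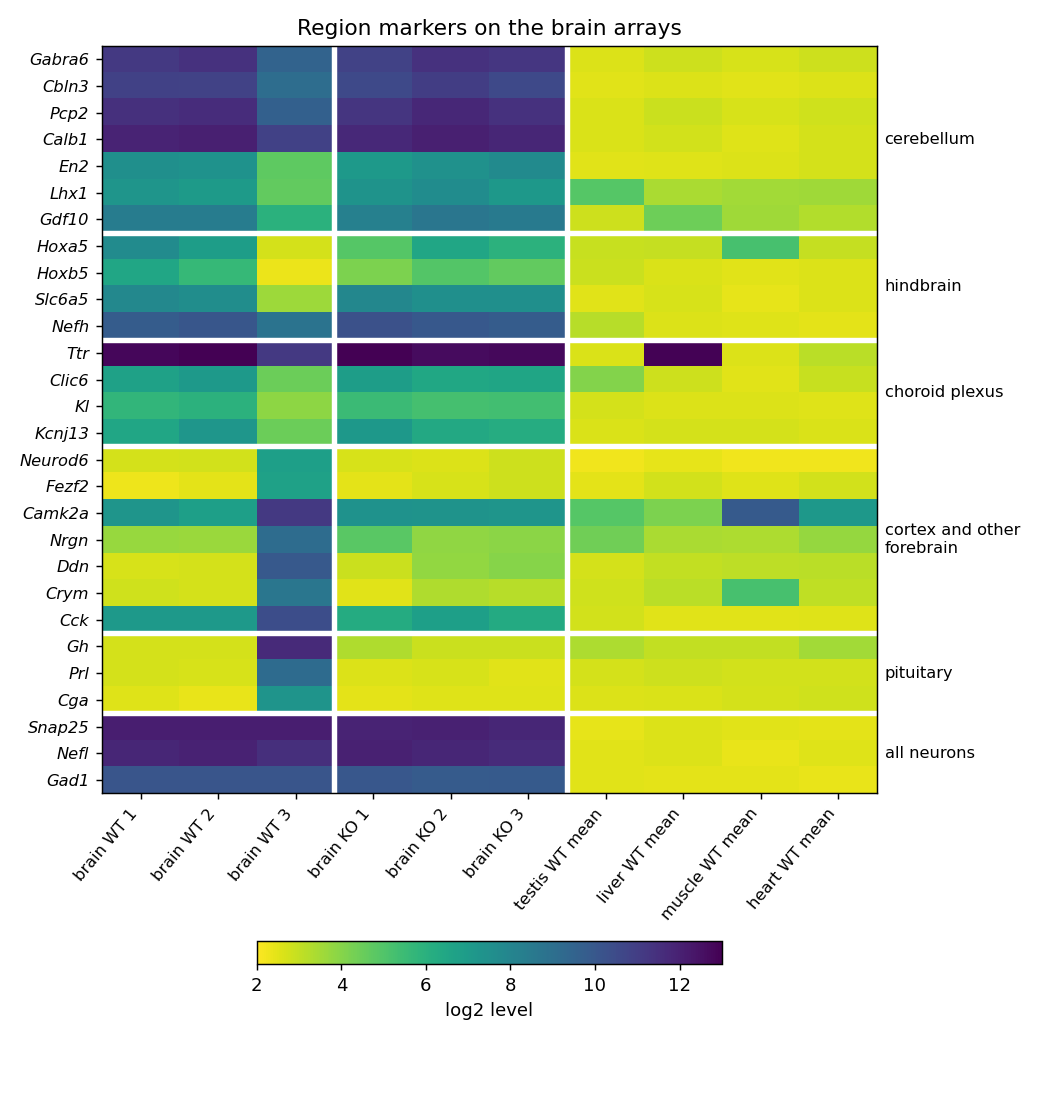
Heat map of log2 levels of region markers, with the 3 wild-type brain arrays at the left, the 3 knockout brain arrays next and the means of wild-type testis, liver, muscle and heart at the right; rows are genes grouped by region, and the colour scale runs from 2 to 13. Rows of cerebellum, hindbrain and choroid plexus are lower on wild-type replicate 3 than on the other 5 brain arrays, and forebrain and pituitary rows are higher there, while Snap25, Nefl and Gad1 are high on all 6.

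Genes of inhibitory and excitatory neurons were mostly higher, as counted below. Gad1, which makes GABA, was at 10.11, 10.11 and 10.08 in brain and 2.29 and 2.56 elsewhere, and its relative Gad2 at 8.2, 7.9 and 8.05. The calcium buffers Calb2 and Pvalb, typical of some inhibitory neurons, were at 10.27, 10.22 and 8.64 and 11.63, 11.62 and 10.27, both lowest on replicate 3, and Pvalb was higher still in muscle, at 13.17. In all, 10 of 15 genes of inhibitory neurons were higher and 3 lower, the lower ones being the forebrain factors Dlx5, Dlx6 and Lhx6, near background in brain. Of 10 genes of excitatory neurons 9 were higher, led by Nptx1 (6.71 ± 0.1), Neurod1 of granule cells (5.75 ± 0.26) and Slc17a6, the glutamate transporter of hindbrain and thalamic synapses, at 8.63, 8.61 and 8.64. Slc17a7, its counterpart in cortex and cerebellum, was at 3.77, 3.84 and 6.24. Without replicate 3, 8 of the 10 were higher and 1 lower.

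Genes of RNA binding and splicing were mostly higher in brain, among them several neuronal forms. Of 27 measured, 19 were higher and 4 lower. Rbfox3, known as the antigen NeuN, was at 11.08, 11.23 and 10.85 in brain and 2.77 and 4.5 elsewhere, and Celf4, Elavl2 and Elavl4 differed by 6.38 ± 0.13, 5.94 ± 0.17 and 5.73 ± 0.09. Ptbp1, which represses neuronal exons in other cells, was at 5.51, 5.58 and 5.44 in brain, against 7.54 in testis and 7.96 in liver, and fell by 1.28 relative to the mean (adjusted p 2.22e-08 in limma). Elavl1, Cpeb3 and Qk were lower by their chosen probe sets, with differences of −1.7 ± 0.15, −1.18 ± 0.13 and −1.08 ± 0.08, but other probe sets of all 3 were higher in brain, so their direction depended on the probe set.

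Rest, the repressor that silences neuronal genes in other tissues by binding the RE1 element, was among the genes below each tissue. It stood at 4.57, 5.03 and 4.35 on the brain arrays and at means of 6.67 in testis, 7.28 in liver, 6.61 in muscle and 6.01 in heart. The difference was −1.99 ± 0.12, with a limma adjusted p of 1.03e-13, and the groups did not overlap. Of the 12 genes of Rest and its corepressors 6 were lower and 3 higher, near the shares over all genes, 46.5% lower and 28.1% higher. With each array centred on its median 8 were lower and none higher, and with probe sets marked as cross-hybridising left out 7 and 1. Sin3b, a scaffold of histone deacetylases, was at 7.0, 6.87 and 6.97, against 7.75 and 10.72, and Sin3a and Rcor3 fell by 0.7 and 0.68. The higher ones were Hdac2 (0.39 ± 0.13), Ctdsp2 (0.36 ± 0.13) and the demethylase Kdm1a (0.34 ± 0.08), all with at least 1 other tissue above brain. Other probe sets of Ctdsp2 differed by −1.71 and −2.21 and one of Rcor3 by 0.79, so the direction of both genes depended on the probe set.

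Promoter windows of 300 bases, from 250 before to 50 after the gene start, were searched for the 2 half-sites of the RE1 element, TTCAGCACC and GGACAGCGC, 2 bases apart, on both strands, with at most 3 mismatches over the 18 letters. The form of the motif and the mismatch limit were set after other forms had been tried on these promoters. A match was found in 37 of 32851 windows (0.113%). Of 29 tested genes with a match, 16 were higher in brain and 4 lower, and 11 were above each tissue, beside 28.1% higher and 12.0% above each among the 13605 tested genes with a promoter window. The only match without a mismatch was in Lhx3, which was near background in all 5 tissues, with a brain mean of 2.71. Its difference was 0.028 ± 0.086 (adjusted p 0.772 in limma). A match describes letters in a window and says nothing of binding here. The promoters of 3 matched genes with large rises, chosen with their values known, are given below from RefSeq, build GRCm38.p6, 5′ to 3′ on the gene's strand, because they show where the match lies, and the capitals mark the 20 bases of the match. Gria2 (chr3:80802786-80803085, minus strand) carries it in the reverse orientation, and Syn1 (chrX:20920869-20921168, minus strand) and Dner (chr1:84696172-84696471, minus strand) in the same orientation as the gene.
Gria2: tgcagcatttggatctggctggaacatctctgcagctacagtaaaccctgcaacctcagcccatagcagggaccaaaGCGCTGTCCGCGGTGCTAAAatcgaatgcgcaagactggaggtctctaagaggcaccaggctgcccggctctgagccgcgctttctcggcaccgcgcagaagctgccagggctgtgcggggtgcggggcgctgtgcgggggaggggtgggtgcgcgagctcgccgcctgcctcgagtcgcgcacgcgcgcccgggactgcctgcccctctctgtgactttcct
Syn1: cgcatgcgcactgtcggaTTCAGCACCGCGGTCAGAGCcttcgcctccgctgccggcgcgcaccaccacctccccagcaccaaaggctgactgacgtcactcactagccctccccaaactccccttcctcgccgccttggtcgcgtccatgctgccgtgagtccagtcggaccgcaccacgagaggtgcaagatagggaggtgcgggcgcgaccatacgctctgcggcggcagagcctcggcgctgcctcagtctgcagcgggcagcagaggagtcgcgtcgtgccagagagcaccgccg
Dner: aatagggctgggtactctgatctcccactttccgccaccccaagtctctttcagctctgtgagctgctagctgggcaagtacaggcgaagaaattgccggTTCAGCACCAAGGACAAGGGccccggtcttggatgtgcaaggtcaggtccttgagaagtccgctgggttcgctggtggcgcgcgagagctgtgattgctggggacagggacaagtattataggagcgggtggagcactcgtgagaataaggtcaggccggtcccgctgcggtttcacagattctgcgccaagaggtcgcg

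Gria2 and Syn1 values are given above, and Dner, a Notch ligand of Purkinje cells, was at 11.03, 11.05 and 10.11 in brain and 2.54 and 2.97 elsewhere. Counted from the gene start, the matches begin at −173 in Gria2, −232 in Syn1 and −150 in Dner. Written on the strand of the motif with mismatches in lower case, as are the 2 bases between the half-sites, the match reads as follows.
Gria2: TTtAGCACCgcGGACAGCGC
Syn1: TTCAGCACCgcGGtCAGaGC
Dner: TTCAGCACCaaGGACAagGg

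Imprinted genes, expressed from 1 parental copy, were higher in 12 of 16 cases and lower in 1. After Nap1l5, the largest were Ndn at 9.8, 9.77 and 9.88, against 2.65 and 5.37, Peg3 at 10.57, 10.42 and 10.18, against 3.95 and 6.14, and the noncoding Rian at 9.96, 8.41 and 8.97. The growth inhibitor Cdkn1c was the 1 lower, at 4.34, 4.64 and 4.05, against 7.71 in testis and 6.48 in muscle.

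The 10 largest falls with no overlap between arrays were led by Cd36. Cd36, the fatty acid transporter of heart, muscle and fat, stood at 3.1, 3.09 and 2.63 on the brain arrays, against means of 6.2 in testis, 8.93 in liver, 10.40 in muscle and 12.17 in heart. It fell by at least 6.48 ± 0.37 (SE, n = 3 arrays per tissue; adjusted p 2.91e-14 in limma). The fatty acid carrier Fabp4 fell by 6.19, the mitochondrial creatine kinase Ckmt2 by 6.13, the iron regulator Hjv by 6.04, the carboxylesterase Ces1d by 5.96, the lipid droplet protein Fitm1 by 5.74, Plbd1 by 5.66, myoglobin (Mb) by 5.38 and the gluconeogenic enzyme Fbp1 by 5.34. Brain levels of all of these were between 2 and 4, near background, so the falls are lower bounds. Car3, a carbonic anhydrase of fat, liver and muscle, fell by 6.29 ± 0.87, and its testis arrays were 4.65, 8.68 and 8.7, a wider spread than in other groups. Plbd1, with 2.63, 2.67 and 3.28 in brain and 7.71 and 9.1 elsewhere, lay below each tissue on every array.

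Lists of genes that mark the other tissues were mostly lower in brain. Of 14 hepatocyte genes 13 were lower and 1, Ttr, higher. Of 14 skeletal muscle genes 13 were lower and 1, Pvalb, higher. Of 16 sperm genes 15 were lower and 1, the ornithine decarboxylase antizyme Oaz3, higher, at 3.69, 3.32 and 3.38 in brain and 3.27 in testis, near background in both. Of 11 cardiomyocyte genes 8 were lower and 1 higher, which was the calcium release channel Ryr2, at 8.07, 8.34 and 8.7 in brain and 11.46 in heart.

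Of 24 measured genes listed under mitochondrial fatty acid oxidation and related steps, 19 were lower in brain and 4 higher, with a median of −1.86. The carnitine transferase of the inner membrane, Cpt2, was at 5.6, 5.6 and 5.03 in brain and 8.64 and 10.86 elsewhere, and lay below each tissue. The thiolase Acaa2 and the short-chain dehydrogenase Acads, which act in the cycle that shortens fatty acids, were at 6.36, 6.47 and 5.91 and 3.62, 3.68 and 3.66. The 4 listed genes that were higher were Cpt1c (3.48 ± 0.17), the acyl-CoA synthetases Acsl6 (3.07 ± 0.14) and Acsl3 (2.65 ± 0.21), and Oxct1 (1.58 ± 0.08). Oxct1 lets tissues burn ketone bodies and is not itself a step of fatty acid oxidation. Its rise came from liver, where it stood at 3.74. The difference was −0.033 with liver left out of the mean and −1.56 against the highest other tissue.

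Of 21 genes of the citric acid cycle and pyruvate dehydrogenase 13 were lower and 5 higher, beside 46.5% and 28.1% over all genes. The share higher was near that over all genes. Suclg2, the succinyl-CoA ligase subunit that uses GTP, was at 5.84, 5.94 and 5.78, against 10.45 in liver and 10.13 in heart, and the pyruvate dehydrogenase components Dlat and Pdhx fell by 1.89 and 1.68. Those higher were Mdh1 (1.29 ± 0.13), Mdh2 (0.51 ± 0.09), Pdha1 (0.51 ± 0.17), Idh3g (0.47 ± 0.11) and Idh3b (0.31 ± 0.08), each below heart. Other probe sets differed by −1.15 for Pdha1, 2.12 for Idh3b and 0.069 for Dlat, so these values depended on the probe set. Of 74 nuclear genes of oxidative phosphorylation 48 were lower and 7 higher, with a median of −0.36, beside −0.20 over all genes. After quantile normalization was applied again these counts were 30 lower and 23 higher with a median of −0.044, beside −0.13 over all genes, and with each array centred on its median they were 60 and 4, so the balance depended on the scaling. The 4 largest falls were subunits of cytochrome oxidase with a form for muscle, Cox6a2 (−4.09 ± 0.2), Cox8b (−3.87 ± 0.11) and Cox7a1 (−3.1 ± 0.16), or for testis, Cox8c (−2.39 ± 0.15).

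Mitochondrial proteases, the class to which ClpP belongs, were lower in 11 of 13 and higher in none, with 7 below each tissue. Over all genes 46.5% were lower and 5.12% below each tissue. Mipep, which trims imported proteins, was at 6.47, 6.32 and 6.64 in brain and 7.46 and 10.27 elsewhere. Afg3l1, a subunit of the inner membrane protease, was at 4.96, 5.59 and 5.06, against 6.61 and 7.62, and Immp1l and Oma1 fell by 1.82 and 1.69. Clpp itself differed by −0.23 ± 0.15, which did not pass the test (adjusted p 0.172 in limma).

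Antigen presentation and interferon genes were mostly lower in brain, where 46.5% of all genes were lower and 28.1% higher. Of 10 genes of class I presentation 8 were lower and 1 higher, with the heavy chain H2-K1 at 7.16, 7.2 and 6.99, against 8.3 in testis and 11.85 in liver. The immunoproteasome subunits Psmb9 and Psmb8 fell by 1.87 and 1.71 and the regulator Nlrc5 by 1.6, while the chaperone Pdia3 was higher by 0.58 ± 0.13. Of 21 interferon-stimulated genes 15 were lower and 2 higher. Ifitm3, which blocks virus entry, was at 6.61, 6.96 and 6.6, against 10.93 in liver and 9.61 in heart, and Rsad2, Parp14 and Dhx58 fell by 2.06, 2.01 and 1.73. The 2 higher were Ifit3 (0.56 ± 0.18) and Ifit2 (0.46 ± 0.14), and with each array centred on its median none was higher and 18 were lower.

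Glycolysis differed gene by gene, with 12 of 22 higher, 8 lower and 3 above each tissue, beside 28.1%, 46.5% and 12.4% over all genes. The share above each tissue was near that over all genes. The muscle mutase Pgam2 was at 2.99, 3.03 and 4.51 in brain, against 12.32 in testis and 12.90 in muscle, and the largest differences otherwise were those of Aldoc, Eno2 and Eno3. Among those lower, Ldha, the lactate dehydrogenase that favours lactate production, was at 9.1, 9.02 and 9.9, and the hexokinase Hk2 was at 4.97, 4.98 and 4.03, against 10.58 in muscle. The glucose transporter Slc2a4 was near background in brain, at 3.0, 3.12 and 2.99.

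Many enzymes and structural proteins come as related genes with a form used by brain and a form used elsewhere, and 17 such families had both kinds measured. The neuronal enolase Eno2 rose by 7.28 ± 0.07 and the muscle enolase Eno3 differed by −4.63 ± 0.10, with 4.91, 4.88 and 4.74 in brain and 13.16 in muscle. Aldoc rose by 8.39 ± 0.27, while Aldoa, the aldolase of muscle, differed by 0.62 ± 0.09 and stood at 13.13 in muscle. Neuronal class III tubulin Tubb3 rose by 5.27 ± 0.14 and Tubb6 differed by −3.48 ± 0.22, with all 3 brain arrays, 2.85, 3.08 and 2.92, below all others. The vesicle synaptobrevin Vamp2 rose by 3.24 ± 0.15, while Vamp8 and Vamp3 differed by −1.36 ± 0.21 and −0.59 ± 0.21. Dynamin 1 (Dnm1), which pinches off vesicles at synapses, rose by 6.33 ± 0.17 and the general dynamin Dnm2 differed by −0.69 ± 0.11.

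In the carnitine transferases, Cpt1c, the form of neurons, rose by 3.48 ± 0.17 but was as high in testis, at 7.99, while the liver form Cpt1a and the muscle form Cpt1b differed by −1.08 ± 0.23 and −4.33 ± 0.18. Brain glycogen phosphorylase Pygb rose by 2.56 ± 0.22 with a higher level in heart, 10.69, and the muscle and liver forms Pygm and Pygl differed by −2.11 ± 0.17 and −2.26 ± 0.28. Pygm was lower in brain than in muscle and heart only, and Pygl mainly than in liver, at 10.73. In cytochrome oxidase, the general subunits Cox6a1 and Cox8a rose by 1.45 ± 0.09 and 2.31 ± 0.15, whereas Cox7a2 differed by −0.31 ± 0.06, and all 3 muscle counterparts fell as given above. Those 3 falls came from muscle and heart, as testis and liver were near background and not above brain. The glucose transporter Slc2a3 rose by 2.62 ± 0.21 but was highest in testis, at 12.30, and Slc2a4 and Slc2a2 fell by 3.4 and 2.12. Slc2a4 was above background only in muscle and heart, and Slc2a2 only in liver. The hu protein Elavl3 rose by 4.47 ± 0.13.

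Among the kinesin motors and the calcium pumps forms of both kinds rose, while the other families of this paragraph were mixed. The neuronal motor Kif5a and the general motor Kif5b differed by 8.28 ± 0.14 and 1.46 ± 0.1, and the plasma membrane calcium pumps Atp2b2 and Atp2b1 by 6.65 ± 0.15 and 2.12 ± 0.2. In calmodulin kinase II, Camk2a and Camk2g differed by 1.89 ± 0.47 and 1.9 ± 0.15 and Camk2d by −0.23 ± 0.11. The brain arrays had an SD of 2.39 for Camk2a, and its difference was 0.51 without replicate 3. Camk2a and Camk2g were higher in muscle, at 9.87 and 9.36, than in brain, at means of 8.41 and 9.0. Other probe sets of Camk2a differed by −0.17 to 0.68. The other probe sets of Camk2d were higher in brain, by up to 0.85. The ATP synthase genes Atp5g3 and Atp5g1 differed by 0.42 ± 0.10 and −0.62 ± 0.10, and the 14-3-3 genes Ywhah and Sfn by 3.55 ± 0.09 and −0.39 ± 0.11, Sfn being near background in every tissue.

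**Figure D5:**
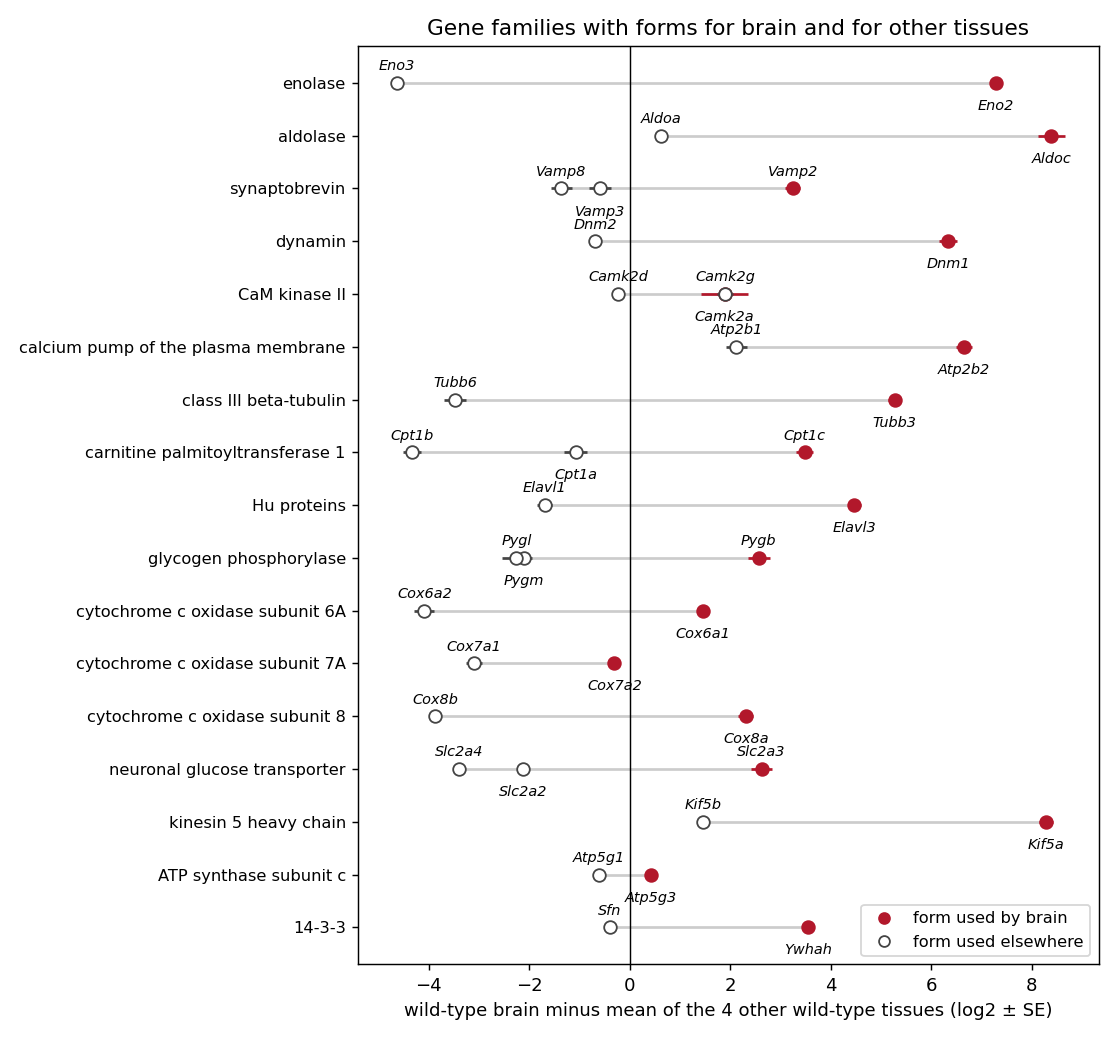
Difference between wild-type brain and the mean of the 4 other wild-type tissues on the log2 scale, with SE bars, for members of 17 gene families; filled dots are the form used by brain and open dots forms used elsewhere, 1 row per family, and a line marks zero. The brain form lies right of zero in all families but cytochrome c oxidase subunit 7A, and Eno3, Cpt1b and Cox6a2 lie below −4.

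The same difference was taken between knockout brain and the 4 knockout tissues. Its group means use none of the wild-type arrays. Both comparisons share the estimate of spread for each gene, which comes from all 30 arrays, so the 2 sets of calls are not independent. There 25.2% of genes were higher and 42.3% lower than the mean. Of the 4806 genes higher in wild-type brain 4023 were higher in knockout brain, 83.7% of the wild-type list and 93.4% of the knockout list. Of the 7958 lower, 6363 were lower in knockout brain, 80.0% and 88.0% of the lists, and 12 genes were higher in wild-type and lower in knockout brain and 11 the reverse. The differences in knockout brain were 9.3 for Snap25, 9.26 for Nefl, 8.98 for Stmn3, 8.6 for Mbp, −6.22 for Cd36 and −2.62 for Rest, all in the direction seen in wild-type brain. Knockout brain had 26 of 26 neuronal markers, 32 of 35 vesicle genes and 20 of 20 myelin genes higher, and 20 of 24 fatty acid oxidation genes and 12 of 13 mitochondrial proteases lower. Of the 19 cortical genes 6 were higher in knockout brain, whose arrays 1, 2 and 3 had 2.65, 2.57 and 2.83 for Neurod6 and 2.9, 3.77 and 4.02 for Ddn.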

How the data were processed

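The 30 arrays hold total RNA of 5 tissues from ClpP knockout and wild-type mice, 3 per group. The deposited values are log2 intensities that the authors normalised with RMA in R 2.14.0, per the submitters' processing notes. RMA makes the distributions of arrays alike, so a shift of most genes at once would not be seen, and arrays give no counts of reads, so their number limits the precision. Of 45141 probe sets, 28898 have 1 gene symbol in the platform annotation, 551 have several and 15692 none, and only the first were used, the one with the highest mean over all arrays for each of 17097 genes.

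In limma 3.58.1, run under R 4.3.3, 10 group means were estimated from all 30 arrays with 20 residual degrees of freedom. Wild-type brain was contrasted with the mean of the other 4 wild-type group means, and p-values were adjusted over all genes by Benjamini-Hochberg. The fit was tested on simulated data. Genes named are the 15 largest rises and 10 largest falls with no overlap between arrays and a group mean of at least 6, the 10 farthest above the highest other tissue, up to 4 called members of each list discussed and those against it, the families in full, and the 10 highest and 10 lowest on brain replicate 3. Clone names were left out, 32 among 1629 eligible rises and 77 among 1270 falls. Clpp, Dner, Fezf2, Gad2, Grin2c, Kif5c, Kl, Map2, Mapt, Neurod6, Npy, Ntsr2, Slc17a7 and Syn1 were named after their values were seen. The members and the 50 gene lists were chosen with earlier results of these data known. Alternatives covered the scaling, the probe set, filters, the reference tissues, array weights, a minimum difference and each array left out.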

Additional observations from a re-analysis of the deposited data

Results flagged for a closer look

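The difference between brain and the other tissues was set against its counterpart in knockout mice, whose group means use other arrays, by an interaction contrast in the same limma model, with adjustment over all genes. It passed for 1784 genes (10.4%), among them 18 of the 254 genes named here. All values are wild-type minus knockout difference on the log2 scale, with the wild-type brain difference and the knockout brain difference beside the larger ones. In 17 of the 18 the testis means of the genotypes lay more than 1 apart, and in 2, Lhx1 and Rsad2, the brain means did, so a value below is not by itself a difference between the genotypes in brain. The cause was not tested.

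Rest had a wild-type minus knockout value of 0.64, with a difference of −1.99 in wild-type brain and −2.62 in knockout brain, so brain was lower in both. Rest averaged 4.65 in wild-type and 4.52 in knockout brain, and 6.67 in wild-type and 8.35 in knockout testis. Map2 had −1.17, with 0.81 in wild-type and 1.98 in knockout brain, and its testis means were 6.94 in wild type and 3.01 in knockout. Atp2b1 had 1.2, with 2.12 and 0.92, and testis means of 5.67 in wild type and 7.88 in knockout. The Purkinje cell factor Lhx1 had −1.43, with 2.45 in wild-type and 3.89 in knockout brain, and its level was lower on wild-type replicate 3. Cdkn1c had −1.11, with −1.5 in wild-type and −0.4 in knockout brain, and Aif1 had −1.05, with −1.63 and −0.58. Testis means were 7.71 in wild type and 4.09 in knockout for Cdkn1c, and 10.55 and 6.5 for Aif1.

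For Ckmt2 the value was −0.87, and its testis means were 7.14 in wild type and 3.7 in knockout. Plbd1 had −0.99, Grin2b −0.96, Grin3b −0.61 and Npb −0.79, all with brain levels below 4 in wild type, and Rsad2 had −0.74, with brain means of 4.01 in wild type and 5.87 in knockout. Acsl6 had −0.82, Acaa2 0.65, Cox7a1 0.68, Elavl2 0.82, Ugt8a 0.74 and Ywhah 0.43. In Grin3b and Npb the differences had opposite signs in the genotypes, −0.46 and −0.69 in wild-type brain and 0.14 and 0.10 in knockout brain.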

How the results depend on the processing

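Leaving out 1 wild-type array at a time gave 4596 to 4838 genes higher and 7198 to 7980 lower than the mean, and 2014 to 2104 above and 733 to 875 below each tissue. Against 1 tissue the ranges were 5607 to 5826 higher and 5726 to 6046 lower for testis, 4808 to 5068 and 4862 to 5396 for liver, 4363 to 4590 and 5084 to 5651 for muscle, and 4109 to 4402 and 5028 to 5664 for heart. In knockout brain they were 4030 to 4314 higher and 6417 to 7218 lower. A test against a difference of 1 rather than 0 called 2111 higher, 2453 lower, 1047 above each and 104 below each, with 3131 against testis, 2460 against liver, 2098 against muscle and 1833 against heart higher and 3315 against testis, 2041 against liver, 1789 against muscle and 1853 against heart lower. Testing only genes whose overall mean lay above the median, fewer genes by construction, called 3110 higher, 3877 lower and 1102 above each, with 3328 against liver, 2879 against muscle and 2743 against heart higher and 2950 against testis, 3363 against liver and 3708 against heart lower. With a group mean of at least 6 required, 5292 were lower. Centring each array on its median moved the median difference of all genes from −0.20 to −0.44 and the share of calls that were higher from 37.7% to 27.0%, with 3925 higher and 10610 lower, 2008 below each, and 10316 against liver, 10716 against muscle and 9558 against heart lower. Set against the highest other tissue in place of the mean, 2362 genes were higher and 11667 lower, 16.8% of calls higher. Deviations of same-numbered arrays correlated between brain and the other tissues at −0.0016 to 0.0461, and those of differently numbered arrays at −0.0368 to 0.0148. With 3 arrays per group such values cannot tell whether the numbers pair the samples. A fit with the replicate block called 4824 higher and 7910 lower. Of the 254 genes named, 41 had a difference that changed sign in at least 1 alternative. The sign turned against the highest other tissue for Aldoa (−1.81), Atp5g3 (−0.47), Camk2a (−1.45), Camk2g (−0.36), Cpt1c (−0.20), Crym (−0.48), Ctdsp2 (−0.99), Hba-a1 (−0.99), Hbb-b2 (−1.44), Hdac2 (−0.44), Idh3b (−0.59), Idh3g (−1.72), Ifit2 (−0.90), Ifit3 (−0.12), Kdm1a (−1.17), Map2 (−2.44), Mdh1 (−0.39), Mdh2 (−1.02), Oxct1 (−1.56), Pdha1 (−1.74), Ptk2b (−0.87), Pvalb (−2.0), Pygb (−2.18), Ryr2 (−3.09), Slc2a3 (−2.81), Slco1a4 (−0.33), Ttr (−0.63) and Tyrobp (−0.45). The sign turned with liver left out of the mean for Aldoa (−0.26), Kdm1a (−0.026) and Oxct1 (−0.033). The sign turned with testis left out of the mean for Atp5g3 (−0.16), Ctdsp2 (−0.24), Hbb-b2 (−0.13), Idh3b (−0.17), Idh3g (−0.57), Ifit3 (−0.0005), Mdh2 (−0.32) and Pdha1 (−0.92). The sign turned with probe sets marked as cross-hybridising left out for Cacnb1 (0.023), Ctdsp2 (−1.71), Hbb-b2 (−0.39) and Slc2a3 (−0.47). The sign turned with muscle and heart counted as 1 tissue for Camk2d (0.026) and Syngr1 (0.28). The sign turned with the mean of all probe sets of a gene for Camk2d (0.29), Ctdsp2 (−1.19), Elavl1 (0.24), Grin2b (0.23), Pdha1 (−0.32) and Syngr1 (1.63). The sign turned without brain replicate 3, muscle replicate 1 and testis replicate 3 together for Cga (−0.25), Crym (−0.80), Ctxn1 (−0.24), Ddn (−0.31), Fezf2 (−0.24), Gh (−0.52), Nrgn (−0.062), Prl (−0.099) and Ptk2b (−0.99). The sign turned with array weights for Crym (−0.36) and Ptk2b (−0.73). Leaving out 1 array at a time turned the sign of 10 named genes, with differences of −0.21 to 2.25 for Cga, −0.80 to 2.18 for Crym, −0.24 to 2.04 for Ctxn1, −0.31 to 3.34 for Ddn, −0.25 to 1.95 for Fezf2, −2.96 to 0.12 for Gda, −0.49 to 4.0 for Gh, −0.062 to 2.67 for Nrgn, −0.069 to 3.19 for Prl and −1.01 to 1.46 for Ptk2b, in every case through one of the brain arrays. The turns against the highest tissue or without a tissue follow from the change of reference, and those without brain replicate 3 from genes high on that array. The causes of the others were not tested. Signal near background limits the falls and the low levels: a value below 4 gives no order, and age, sex and brain region are not given in the labels.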

Other observations

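Of 21 genes of cholesterol synthesis and transport 9 were higher in brain and 3 lower, beside 28.1% and 46.5% over all genes. Cyp46a1, the neuronal enzyme that turns cholesterol into a form able to leave the brain, stood at 6.62, 6.47 and 8.45 on brain replicates 1, 2 and 3, against 2.92 and 5.04 on the 12 other arrays. The sterol exporter Abcg1 stood at 8.16, 8.13 and 7.93, against 3.47 and 4.88. Of 22 immediate early genes, which neurons switch on when active, 8 were higher and 1 lower, and with each array centred on its median 7 and 5. Fos was lowest on replicate 3, at 8.36, 8.16 and 5.86, and Egr1 highest there, at 7.95, 7.84 and 9.75. The highest array outside brain had 7.97 for Fos and 8.96 for Egr1, so brain and the other tissues overlapped for both.

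Among 54 cytosolic ribosomal protein genes 17 were higher and 15 lower, with a median difference of 0.06. The balance depended on the scaling, with 35 higher and 8 lower after quantile normalization was applied again and 8 higher and 27 lower with each array centred on its median. Of 11 blood and erythroid genes 2 were higher and 6 lower, the share of lower calls being near that over all genes, and the haem synthesis gene Alas2 of red cell precursors stood at 3.44, 3.41 and 3.1 in brain and at 8.4 in liver. The globin genes Hba-a1 and Hbb-b2 were the 2 higher, with brain values of 13.03, 13.15 and 12.48 and 11.60, 11.88 and 11.07, against means of 13.87 and 12.95 in heart. Of 7 adipocyte genes 6 were lower and none higher, and of 7 epididymis genes none passed the test in either direction.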
